A study of Homo sapiens with 18 samples.

Results

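The genes described here are 7 cyclins and 3 cyclin-dependent kinases (CDKs), 10 of the 58302 genes in the deposited count table. They were chosen by name as the cyclins of G1, S phase and mitosis with their kinases, and each symbol matched 1 Ensembl gene. CCND1, CCND3 and CDK4 belong to G1, CCNE1, CCNE2 and CDK2 to entry into S phase, and CCNA2, CCNB1, CCNB2 and CDK1 to S phase, G2 and mitosis. RNA-seq had been performed in 4 libraries of U87MG, a long-established cell line from a human glioblastoma. There were 2 libraries of control cells, which the labels call WT under normal growth, with no vehicle named, and 2 of Erastin (10 μM, 72 h)-treated cells. Erastin starves cells of cystine by blocking its transporter, system Xc-, and is used to trigger ferroptosis, an iron-dependent form of cell death. Neither group carries a transgene or deletion in its labels, and both come from this single line, so the values describe 1 cell line at 1 dose and 1 time. Replicates carry numbers in the labels, but whether they were separate cultures is not stated, so the p-values measure only the spread between these libraries, which may be technical.

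A CDK of the cell cycle is generally active only when bound to a cyclin, and cyclins are named for the way their levels rise and fall during the cycle. D-type cyclins with CDK4 or CDK6 phosphorylate RB in response to growth signals, which frees E2F factors to transcribe genes such as the E-type cyclins. Cyclin E with CDK2 starts DNA replication, cyclin A with CDK2 and CDK1 carries it through S phase and G2, and cyclin B with CDK1 drives entry into mitosis. In glioblastoma the pathway is often altered by loss of CDKN2A or by gain of CDK4 or CDK6.

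The mRNAs of CCNA2, CCNB1, CCNB2 and CDK1 fell steeply in Erastin-treated cells, and CDK2 fell less. CCNB1 was left with 7.09% of its control level, CCNB2 with 10.4%, CDK1 with 12.8%, CCNA2 with 14.4% and CDK2 with 36.1%. CDK4 was 1.32 times its control level and CCND3 was 77.2% of it. CCND1, CCNE1 and CCNE2 did not pass the test. In all 10 genes the CPM values (counts scaled by TMM to a common library size) of the groups did not overlap, with both Erastin libraries lower in 7 genes and higher in 3, where 36.9% and 36.7% of all tested genes were separated in these directions.

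By edgeR's quasi-likelihood test, a gene was called where its log2 fold change reached 1 in either direction and its Benjamini-Hochberg adjusted p was under 0.05. Of the 10 genes, 5 were called lower, where 9.34% of the 16751 tested genes were called lower. By edgeR 0 of the 10 were called higher, against 6.24% of tested genes, and 2 were higher at an unadjusted p under 0.05. DESeq2 also called 0 higher. By the adjusted p alone, 6 of the 10 were lower and 1 was higher, against 23.7% and 23.2% of tested genes. The median log2 fold change was −1.02 over the 10 genes and −0.00259 over all tested genes. RNA was taken from whole cultures, so fewer cells in a phase of the cycle and less RNA per cell cannot be told apart.

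The libraries held 29412656 to 31513519 counts, and 23519 to 23990 genes had a count in each. Of the astroglial markers, 3 of 6 were under 1 CPM in every library and AQP4 had no count, while GFAP had 46 and 41 counts in control and 69 and 81 in Erastin libraries. The 6 astroglial markers summed to 59.4–61.4 CPM in control and 14.9–15.1 CPM in Erastin libraries, a difference that lay in SLC1A3, with 1741 and 1725 counts in control and 307 and 326 in Erastin libraries. All 6 markers of mesenchymal glioma were present, with a sum of 10716 to 11232 CPM in control and 5771 to 5977 CPM in Erastin libraries. The 4 neuronal markers, with SYT1 and SNAP25 above 1 CPM, summed to 52.8–57.5 CPM and 13.0–13.2 CPM. The 4 endothelial markers summed to 4.64–6.18 CPM and 1.64–2.07 CPM, with CLDN5 at 0. Of these, PECAM1 was called lower (log2 fold change −2.34) and VWF higher (2.58, from 4 counts in each control library to 17 and 32). All 5 immune and all 3 epithelial markers were under 1 CPM in every library, with AIF1, CD3E and CDH1 at 0. The part of these marker changes in the values of cyclins and CDKs was not tested.

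**Figure D1:**
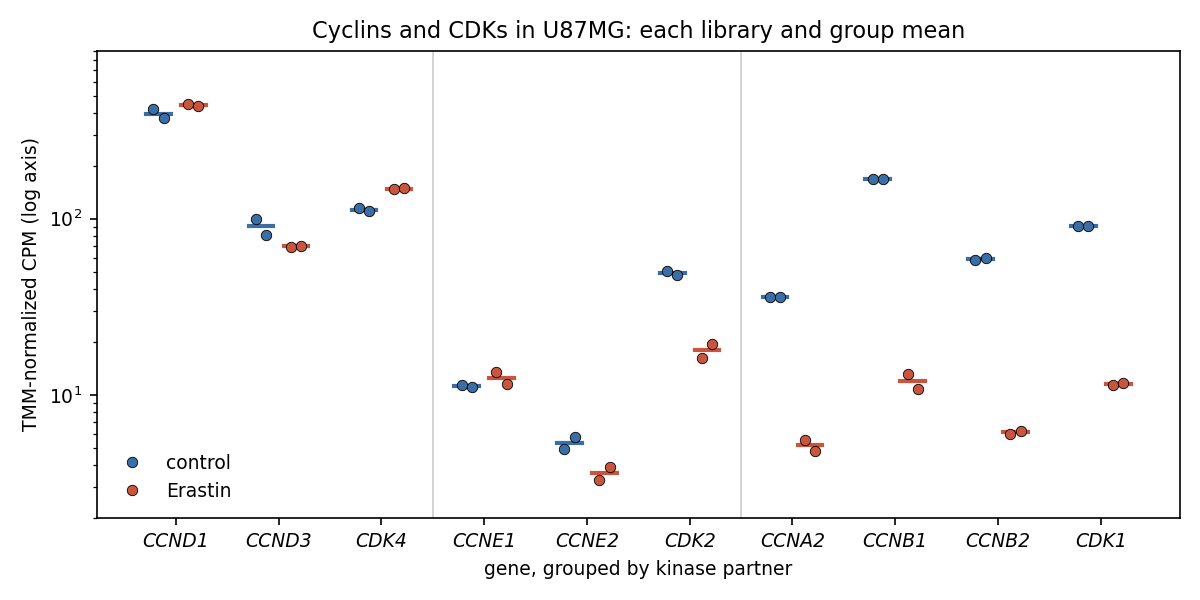
TMM-normalized CPM (log axis) of the 10 genes in each library, grouped by kinase partner; points are libraries and lines are group means (n = 2). Both Erastin points lie far below the control points for CCNA2, CCNB1, CCNB2 and CDK1, from 168 to 11.9 CPM in the case of CCNB1, whereas CCND1 and CCNE1 move little.

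CCND1 (ENSG00000110092; chromosome 11, 69641087 to 69654474, GRCh38) encodes cyclin D1, which links growth factor signals to RB phosphorylation. Its counts were 12774 and 11589 in control and 13493 and 13814 in Erastin libraries. These were 395 ± 31.6 and 445 ± 8.10 CPM (SD, n = 2). CCND1 was thus highest in both Erastin libraries, and the gap between the nearest libraries of the groups was smaller than the gap between the control libraries. The log2 fold change of 0.17 (SE 0.0704, 95% interval 0.02 to 0.33) missed the threshold, with an adjusted p of 0.0651 from edgeR. Without control replicate 1 it was 0.25 with an adjusted p of 0.00128, and without control replicate 2 it was 0.08 with an adjusted p of 0.362. LTO1, on the opposite strand, shares 10.3% of the exon bases of CCND1, with 980 and 1070 counts in control and 1805 and 1693 in Erastin libraries. A rise of more than 0.33 on the log2 scale lay outside the interval with all 4 libraries.

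CCND3 (ENSG00000112576; chromosome 6, 41934933 to 42050357) encodes cyclin D3. It had 3067 and 2507 counts in control and 2076 and 2210 in Erastin libraries, or 90.5 ± 13.9 and 69.9 ± 0.658 CPM. Both Erastin libraries were below both control libraries, which differed from each other almost as much as the group means did. The log2 fold change was −0.37 (SE 0.0962, adjusted p = 0.00729), below the size needed for a call. It lay between −0.53 and −0.21 with each library left out in turn.

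CDK4 (ENSG00000135446; chromosome 12, 57747727 to 57756013) encodes the kinase partner of the D-type cyclins. It had 3509 and 3431 counts in control and 4417 and 4686 in Erastin libraries, or 113 ± 3.05 and 148 ± 1.04 CPM. CDK4 rose in both Erastin libraries by far more than the replicates differed. The log2 fold change was 0.40 (SE 0.0667, adjusted p = 4.19e-04), and it stayed between 0.36 and 0.42 without each library in turn. TSPAN31 lies over the 3′ end of CDK4 on the opposite strand and covers 43.2% of its exon bases. Reads on both genes had not been counted and the counting took no account of strand, so CDK4 was measured on the remaining 1799 exon bases. TSPAN31 had 1084 and 999 counts in control and 1302 and 1207 in Erastin libraries. MARCHF9 also lies over the locus but shares no exon base, and its counts were 1139 and 1120 in control and 919 and 914 in Erastin libraries. Of the 31-base words of CDK4, 12.4% recur elsewhere on the chromosomes and 8.33% on alternate scaffolds, the highest shares among the 10 genes.

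The D-type genes therefore moved in different directions: 1 rose, 1 fell and 1 did not pass the test. Within each library, the ratio of CCND3 to CDK4 counts per kilobase went from 0.272 and 0.228 in control to 0.146 and 0.147 in Erastin libraries. The ratio of CCND1 to CCND3 went from 5.55 and 6.16 to 8.67 and 8.34. Both ratios separated the groups. CDK6, the other kinase of the D-type cyclins, had 1365 and 1564 counts in control and 678 and 827 in Erastin libraries. Its log2 fold change of −0.95 (SE 0.110, adjusted p = 2.25e-05) was just short of a call, opposite in sign to that of CDK4. CCND2 was lowly expressed, with 179 and 225 counts in control and 145 in each Erastin library. It did not pass the test (log2 fold change −0.47, adjusted p = 0.0850).

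CCNE1 (ENSG00000105173; chromosome 19, 29811898 to 29824308) encodes cyclin E1, an E2F target that activates CDK2 at the end of G1. It had 348 and 346 counts in control and 401 and 362 in Erastin libraries, or 11.3 ± 0.172 and 12.5 ± 1.33 CPM. The Erastin libraries were slightly higher, and the log2 fold change of 0.15 (SE 0.147, 95% interval −0.18 to 0.47) gave an adjusted p of 0.449. The value was 0.03 without Erastin replicate 1 and 0.25 without Erastin replicate 2. A fall of the size seen in CDK2 or CCNA2 lay outside the interval with all 4 libraries.

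CCNE2 (ENSG00000175305; chromosome 8, 94879770 to 94896678) encodes cyclin E2 and was the lowest of the 10 genes. It had 150 and 180 counts in control and 98 and 122 in Erastin libraries, or 5.35 ± 0.628 and 3.58 ± 0.429 CPM. Both Erastin libraries were lower, but the log2 fold change of −0.58 (SE 0.232, 95% interval −1.09 to −0.07) missed the threshold with an adjusted p of 0.0593. The interval reached past the size needed for a call, so at this depth a fall of that size could be neither shown nor set aside. Without control replicate 1 the adjusted p was 0.0361. INTS8 covers 37.0% of the exon bases of CCNE2 on the opposite strand, and it had 1736 and 1986 counts in control and 1330 and 1516 in Erastin libraries. NDUFAF6 overlaps the locus without a shared exon base, with 396 and 499 against 716 and 712 counts. An unnamed antisense gene, ENSG00000272509, shares 4 exon bases and had 6 to 10 counts in each library.

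CDK2 (ENSG00000123374; chromosome 12, 55966769 to 55972784) encodes the kinase partner of cyclins E and A. It had 1552 and 1493 counts in control and 487 and 610 in Erastin libraries, or 49.4 ± 1.91 and 17.8 ± 2.21 CPM. Both Erastin libraries were well below both control libraries. The log2 fold change was −1.47 (SE 0.112, adjusted p = 7.33e-07), and 1086 tested genes fell further. The E-type group thus held 1 called gene, the kinase, while neither of its cyclins passed the test. The ratio of CCNE1 to CDK2 per kilobase rose from 0.285 and 0.294 in control to 1.05 and 0.754 in Erastin libraries, a log2 difference of 1.62.

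CCNA2 (ENSG00000145386; chromosome 4, 121816444 to 121823933) encodes cyclin A2, which works in S phase with CDK2 and later with CDK1. It had 1097 and 1112 counts in control and 166 and 151 in Erastin libraries, or 35.8 ± 0.0569 and 5.18 ± 0.526 CPM. The drop was many times the difference between replicates, with a log2 fold change of −2.79 (SE 0.130, adjusted p = 1.22e-08). EXOSC9, a gene of the RNA exosome on the opposite strand, shares 9.08% of the exon bases of CCNA2. Its own counts were 894 and 965 in control and 324 and 446 in Erastin libraries.

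CCNB1 (ENSG00000134057; chromosome 5, 69167010 to 69178245) encodes cyclin B1, which activates CDK1 for entry into mitosis. It had 5121 and 5253 counts in control and only 391 and 340 in Erastin libraries, or 168 ± 1.15 and 11.9 ± 1.59 CPM. This was the steepest fall among the 10 genes, with a log2 fold change of −3.82 (SE 0.0961, adjusted p = 1.98e-10), and 81 tested genes fell further. CCNB2 (ENSG00000157456; chromosome 15, 59105078 to 59125045) encodes cyclin B2, which is found at the Golgi. It had 1792 and 1849 counts in control and 180 and 196 in Erastin libraries, or 59.1 ± 0.647 and 6.13 ± 0.156 CPM. The log2 fold change of CCNB2 was −3.27 (SE 0.110, adjusted p = 1.01e-09). CCNB1 and CCNB2 fell in both Erastin libraries, CCNB1 the further, and the ratio of CCNB2 to CCNB1 rose from 0.320 and 0.321 to 0.420 and 0.526. CCNB3, another B-type cyclin outside the 10 genes, did not fall and is given below.

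CDK1 (ENSG00000170312; chromosome 10, 60778331 to 60794852) encodes the kinase that drives mitosis. It had 2785 and 2809 counts in control and 342 and 368 in Erastin libraries, or 90.8 ± 0.465 and 11.6 ± 0.197 CPM. Replicates were nearly equal in both groups, and the log2 fold change was −2.97 (SE 0.0887, adjusted p = 4.68e-10). CDK1 fell further than CDK2, and the ratio of CDK1 to CDK2 went from 1.48 and 1.55 in control to 0.579 and 0.497 in Erastin libraries. For CDK1 and its cyclins the changes had the same direction but differed in size. The ratio of CCNB1 to CDK1 fell from 2.83 and 2.87 to 1.76 and 1.42, that of CCNB2 to CDK1 went from 0.903 and 0.924 to 0.739 and 0.747, and that of CCNA2 to CDK1 went from 0.609 and 0.612 to 0.750 and 0.634. No other gene's exons cover those of CCNB1, CCNB2 or CDK1, and at most 2.01% of their 31-base words recur elsewhere.

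The promoters of the 4 genes of this group are shown because these genes fell together, and that of CDK4 because it rose. Promoters of genes of G2 and mitosis are known for CCAAT boxes and for the cell cycle genes homology region (CHR), through which the DREAM complex and MYB-MuvB act, and E2F sites mark genes of G1 and S phase. Each line gives the 250 bases before the start in the RefSeq promoter table of GRCh38.p14, with motif matches in capitals. The letters searched on both strands were CCAAT for the CCAAT box and TTTGAA or its variant TTCGAA for the CHR. For E2F they were TTTCGCGC, TTTGGCGC, TTTCCCGC and TTTGCCGC. A CCAAT box on the other strand reads ATTGG.
CCNA2, chr4:121823884-121824133, - strand: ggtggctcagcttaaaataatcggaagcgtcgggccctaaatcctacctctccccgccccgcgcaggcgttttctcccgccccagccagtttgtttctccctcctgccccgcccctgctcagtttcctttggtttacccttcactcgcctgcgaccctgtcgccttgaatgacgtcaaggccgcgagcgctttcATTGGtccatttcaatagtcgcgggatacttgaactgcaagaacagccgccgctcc
CCNB1, chr5:69166900-69167149, + strand: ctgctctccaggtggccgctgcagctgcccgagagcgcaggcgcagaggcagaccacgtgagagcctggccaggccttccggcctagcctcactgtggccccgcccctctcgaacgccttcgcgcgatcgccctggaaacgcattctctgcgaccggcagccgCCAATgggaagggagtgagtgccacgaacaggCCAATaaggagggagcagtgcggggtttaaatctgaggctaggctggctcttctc
CCNB2, chr15:59104896-59105145, + strand: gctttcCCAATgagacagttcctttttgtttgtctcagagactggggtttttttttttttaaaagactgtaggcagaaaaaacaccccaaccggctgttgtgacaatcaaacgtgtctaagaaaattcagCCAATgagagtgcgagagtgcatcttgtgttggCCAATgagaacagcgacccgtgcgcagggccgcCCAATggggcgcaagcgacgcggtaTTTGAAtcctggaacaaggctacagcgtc
CDK1, chr10:60778081-60778330, + strand: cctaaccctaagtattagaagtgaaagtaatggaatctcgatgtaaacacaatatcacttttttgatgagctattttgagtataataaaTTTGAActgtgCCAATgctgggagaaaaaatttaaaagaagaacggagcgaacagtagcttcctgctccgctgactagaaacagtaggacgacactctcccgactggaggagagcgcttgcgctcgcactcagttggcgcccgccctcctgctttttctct
CDK4, chr12:57752311-57752560, - strand: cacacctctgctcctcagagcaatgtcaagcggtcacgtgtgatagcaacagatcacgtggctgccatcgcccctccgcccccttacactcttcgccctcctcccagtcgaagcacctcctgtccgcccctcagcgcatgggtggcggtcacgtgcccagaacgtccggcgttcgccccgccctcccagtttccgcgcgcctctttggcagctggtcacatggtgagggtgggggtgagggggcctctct

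With the 50 bases after the start included, 7 of the 10 genes had an entry in the promoter table. CCNB2 held 4 CCAAT boxes, at −244, −120, −87 and −54 from the start, and a CHR match at −29. CCNB1 held 2, at −87 and −55, and CCNA2 held 1, at −56. In neither was TTTGAA or TTCGAA found, and other forms of the CHR were not searched. The CDK1 promoter printed above has a CHR match at −161 and a CCAAT box at −150, and its E2F match lies at 20 bases after the start. From the second annotated start of CDK1, the E2F match lies at −128, with CCAAT boxes at −78 and −46 and CHR matches at −69, −13 and 10. Over all 35116 promoters of the table, 34.6% held a CCAAT box, 16.4% a CHR match, 6.38% both and 3.31% an E2F match. No match was found in the windows of CDK4 and CCNE1. CCND3 had 3 annotated starts, with 1 CCAAT box in each of the windows of the second and the third. A match is a string of letters in the sequence and not a measured site, and binding was not measured here. Sites with letters other than those searched would be missed, so a window without a match may still hold a site.

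**Figure D2:**
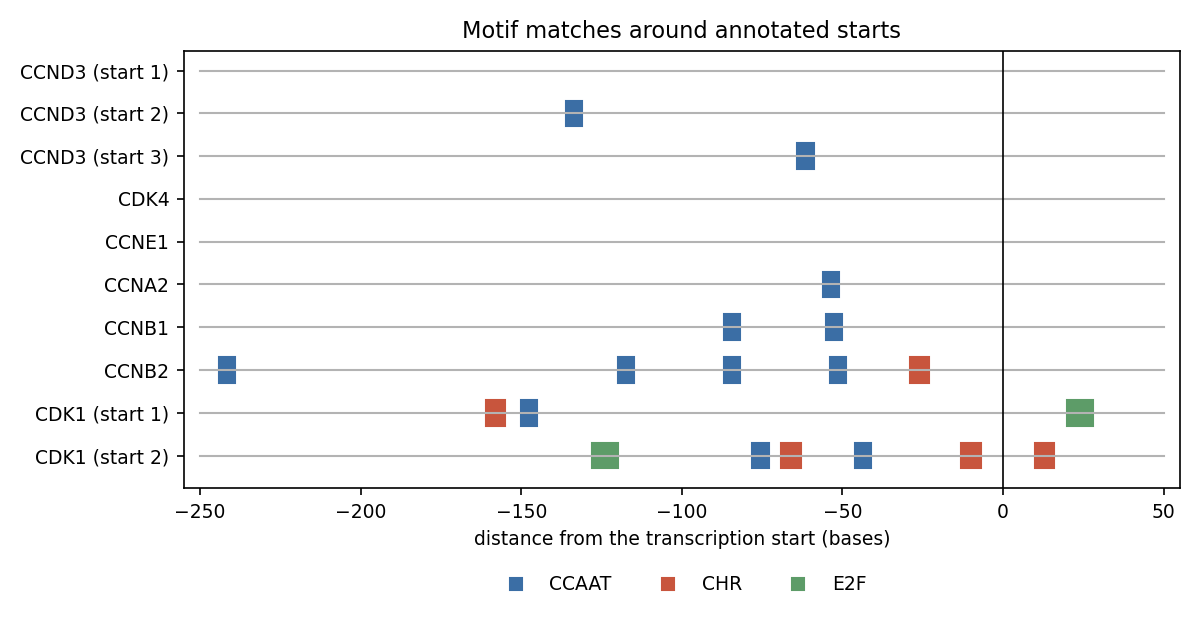
Positions of CCAAT, CHR and E2F matches from 250 bases before to 50 bases after each annotated start of CCND3, CDK4, CCNE1, CCNA2, CCNB1, CCNB2 and CDK1 (horizontal axis, bases from the start; each line is 1 start). CCAAT boxes (blue) stand in the windows of CCNA2, CCNB1, CCNB2 and CDK1 and in 2 of the 3 windows of CCND3, and those of CDK4 and CCNE1 are empty.

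Levels were compared between genes as CPM per kilobase of exon that no other gene's exons cover. In control cells the order was CCND1 at 91.3 ± 7.30, CCNB1 at 65.8 ± 0.448, CDK4 at 62.6 ± 1.70, CDK1 at 23.1 ± 0.118, CCNB2 at 21.1 ± 0.231, CCND3 at 15.7 ± 2.40, CDK2 at 15.3 ± 0.588, CCNA2 at 14.1 ± 0.0224, CCNE1 at 4.42 ± 0.0674 and CCNE2 at 1.94 ± 0.227 (SD, n = 2). Only CCND3 and CDK2 overlapped among neighbours in this order, but the range of CCND3 (13.97 to 17.36) also took in that of CCNA2 (14.07 to 14.10). In Erastin-treated cells CCND1 was at 102.8 ± 1.87, CDK4 at 82.5 ± 0.576 and CCND3 at 12.1 ± 0.114. Below them came CDK2 at 5.51 ± 0.684, CCNE1 at 4.89 ± 0.523 and CCNB1 at 4.67 ± 0.622, whose ranges overlapped in turn. CDK1 followed at 2.94 ± 0.050, then CCNB2 at 2.19 ± 0.0556 and CCNA2 at 2.04 ± 0.207, which overlapped, and last CCNE2 at 1.30 ± 0.155. CCNB1 thus moved from the second to the sixth place. CCNE1, at the ninth place in control cells, changed little, and CDK2 and CCNB1 fell to ranges that overlapped its own.

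The composition of the group changed accordingly. CDK4 made up 62.2% and 61.9% of the counts per kilobase of the 3 kinases in control and 91.2% and 90.2% in Erastin libraries. The share of CDK1 went from 22.6% and 23.2% to 3.23% and 3.24%, and that of CDK2 from 15.3% and 14.9% to 5.58% and 6.52%. Among the 7 cyclins, the D-type cyclins held 51.6% and 48.1% in control and 88.0% and 88.8% in Erastin libraries. The A- and B-type cyclins held 45.6% and 48.8% in control and 7.15% and 6.53% in Erastin libraries. The share of the E-type cyclins was 2.83% and 3.11% in control and 4.88% and 4.63% in Erastin libraries, although neither E-type cyclin passed the test on its own level. The 13 ratios between partner genes computed within each library share the same 10 genes, and 8 were lower and 5 higher in both Erastin libraries. Ratios of other gene pairs were not computed. None of the 13 could reach significance, since 0.333 is the smallest two-sided p that an exact permutation test allows with 2 against 2 libraries. With the exon lengths of the deposited table in place of the unshared lengths, the mean share of CDK4 was 49.8% in control and 86.2% in Erastin libraries. Exon lengths were the union over all transcripts and exceed the length of most single mRNAs, so these levels and shares are approximate.

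**Figure D3:**
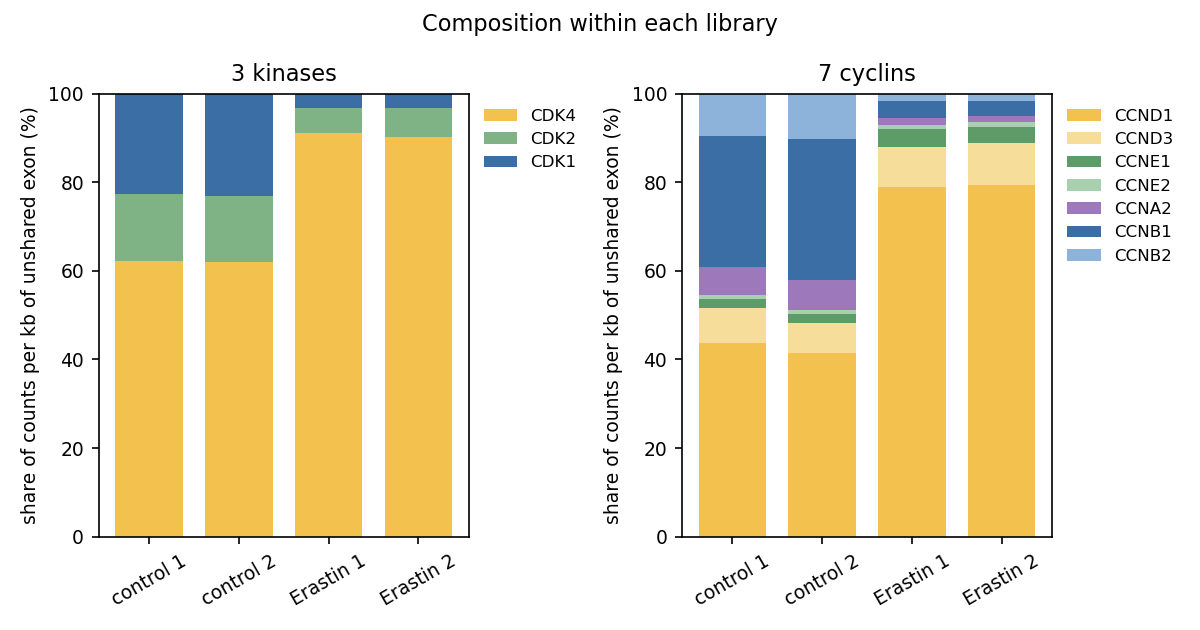
Share (%) of each gene in the counts per kilobase of unshared exon, by library, among the 3 kinases (left) and the 7 cyclins (right). CDK4 grows from 61.9–62.2% to 90.2–91.2% of the kinases, and the A- and B-type cyclins shrink to 6.53–7.15% of the cyclins.

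Other genes of the pathway were taken from 6 lists of 60 genes, of which 53 were tested and 9 were called lower and 3 higher, beside 9.34% and 6.24% of all tested genes. Among the 6 other cyclins and CDKs of the cell cycle, 5 were tested, and CCNF, a cyclin that serves as an F-box protein, was called lower (log2 fold change −1.44, adjusted p = 1.44e-05). CCNB3 went the other way from CCNB1 and CCNB2, with 95 and 50 counts in control and 130 and 131 in Erastin libraries. Its log2 fold change by edgeR was 0.85 (adjusted p = 0.0456), below the size needed for a call. Among the 10 genes that activate, inhibit or adapt CDKs, 6 were called lower and 0 higher, with a median log2 fold change of −1.21. CDC25B and CDC25C encode phosphatases that activate CDK1, and their log2 fold changes were −1.07 and −2.94. WEE1 and PKMYT1 encode kinases that inhibit CDK1, and theirs were −1.34 and −1.89. CKS1B and CKS2, the small subunits of CDK complexes, had −1.35 and −1.89. Genes that activate CDK1 and genes that inhibit it were thus both called lower. At an unadjusted p under 0.05, 0 of these 10 genes were higher, and DESeq2 called 0 higher. CDC25A had a log2 fold change of −0.10 (adjusted p = 0.615). In CKS1B and CKS2, 34.1% and 34.2% of the 31-base words recur elsewhere. CDK7, the kinase that activates other CDKs, had 7 and 12 counts in control and 23 and 12 in Erastin libraries, and 96.9% of its 31-base words also occur on alternate scaffolds.

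Of 8 CDK inhibitors, 4 were tested, and the other 4, CDKN1C, CDKN2A, CDKN2B and CDKN2C, had no count in any library. For CDKN1C, 92.6% of the 31-base words also occur on alternate scaffolds. CDKN1A, which encodes p21, the inhibitor of CDK2 induced by p53, had 6861 and 6426 counts in control and 34400 and 36807 in Erastin libraries. It was the only inhibitor called higher, with a log2 fold change of 2.43 (SE 0.0692, adjusted p = 3.98e-10). CDKN1B, which encodes p27, had 1694 and 1643 counts in control and 929 and 955 in Erastin libraries (log2 fold change −0.82, adjusted p = 1.40e-05). CDKN2D, which encodes the CDK4 and CDK6 inhibitor p19, had 619 and 592 against 315 and 346 (log2 fold change −0.87, adjusted p = 1.70e-04). CDKN3, a phosphatase of CDKs, had 1393 and 1547 counts in control and 163 and 123 in Erastin libraries and was called lower with a log2 fold change of −3.35 (adjusted p = 1.01e-08), a size like that of CCNB2. The inhibitors that were measured thus did not move as a group.

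Among 6 substrate receptors of ubiquitin ligases that degrade cyclins, 1 was called, CDC20, which directs the anaphase-promoting complex to B-type cyclins. It had 3514 and 3204 counts in control and 142 and 130 in Erastin libraries (log2 fold change −4.62, adjusted p = 1.98e-10). FZR1 and SKP2 had log2 fold changes of −0.42 and −0.55, and FBXW7, the receptor for cyclin E, and AMBRA1, the receptor for D-type cyclins, had 0.54 and 0.44 (adjusted p = 0.00404 and 0.00104). FBXO31, a receptor for cyclin D1, had 0.17 and did not pass the test (adjusted p = 0.166). None of the 14 genes that work in transcription, such as CDK9 and CDK12, was called in either direction by edgeR. Over all tested genes, 9.34% were called lower and 6.24% higher. By the adjusted p alone, 4 of the 14 were lower and 2 higher, beside 23.7% and 23.2% of all tested genes. At an unadjusted p under 0.05, 5 of these 14 genes were lower and 2 higher. DESeq2 also called 0 of them in either direction. Their median log2 fold change was 0.05, from −0.60 for CCNC to 0.64 for CCNK. Of 16 other cyclins and CDKs, 14 were tested and 2 were called higher, beside 6.24% of all tested genes. CCNJ had 408 and 416 counts in control and 864 and 860 in Erastin libraries (log2 fold change 1.07), and the call of CDK18 rests on 10 and 2 against 36 and 27 counts. In both of the latter lists the median stayed near 0, at 0.05 and 0.01, while it was −3.12 over CCNA2, CCNB1, CCNB2 and CDK1.

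**Figure D4:**
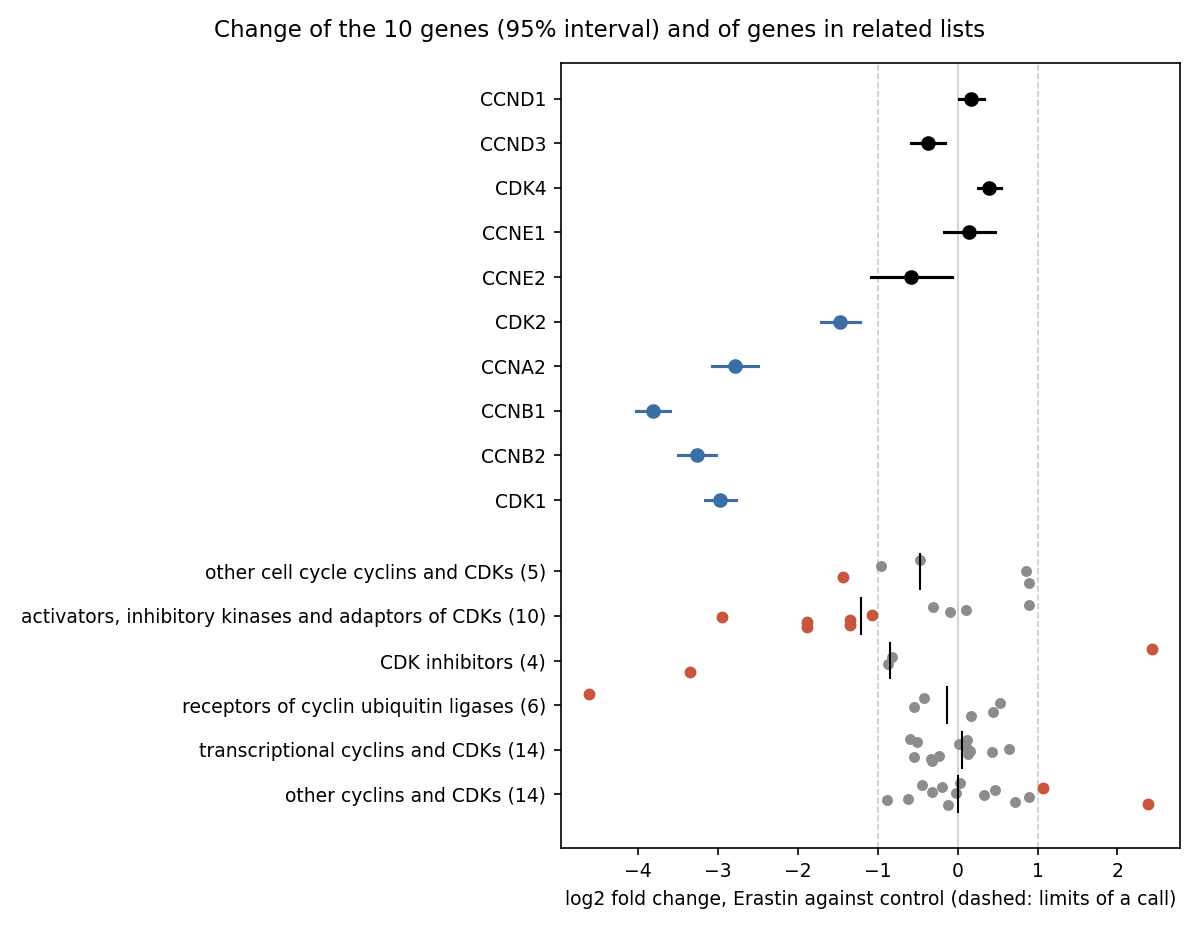
Log2 fold change, Erastin against control, of the 10 genes (upper rows; bars are 95% intervals from edgeR, blue where called) and of the tested genes of 6 related lists (lower rows; number tested in brackets, orange where called, black line at the median). CCNA2, CCNB1, CCNB2 and CDK1 lie between −3.82 and −2.79, and the 14 transcriptional genes between −0.60 and 0.64.

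Profiles over the 4 libraries were compared by the Euclidean distance between centred log2 CPM values, among 9499 tested genes whose mean reached 10 CPM. Closest to CDK1 were KIF18A (distance 0.0872), CENPF (0.102) and NDP (0.116). CENPF encodes a kinetochore protein and NDP the ligand norrin. KIF18A, a mitotic kinesin, had 47.1 and 47.3 CPM in control and 5.58 and 5.67 CPM in Erastin libraries. Closest to CDK2 were EPHA2 (0.0274), MT-ND4 (0.0456) and DBF4 (0.0867), which encode a receptor tyrosine kinase, a subunit of respiratory complex I made in mitochondria and the activator of the CDC7 kinase. Closest to CDK4 were YARS1 (0.0238), SIRPA (0.0265) and TOMM22 (0.0265), which encode tyrosyl-tRNA synthetase, a receptor for CD47 and a protein of mitochondrial import. Among the 10 genes themselves, CCNE1 and CCND1 were the closest pair (0.161), followed by CCND1 and CDK4 (0.240), CCNA2 and CDK1 (0.253) and CCNB2 and CDK1 (0.289). CCNB1 and CDK4 were farthest apart (4.21).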

How the data were processed

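Per the methods and the submitters' processing notes, reads of U87MG cells were aligned to hg38 with HISAT2 2.1.0. The authors deposited unnormalized counts of reads per gene, written by featureCounts (2.0.3 per the file header, 2.0.4 per the notes; the methods name htseq-count) with the Ensembl 90 annotation. The command set no strand and counted both reads of a pair. Reads on more than 1 gene were not counted. The deposited values were also examined as estimated counts, but all were whole and rounding changed none. Reads without molecular identifiers are not independent molecules.

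Libraries were grouped by their labels. In R 4.3.3, edgeR 4.0.16 (filterByExpr with a minimum count of 10, TMM, quasi-likelihood test, Benjamini-Hochberg adjustment over 16751 genes) was fitted without a replicate block. P-values were two-sided. Normalization factors lay between 0.971 and 1.02, and the biological coefficient of variation was 10.3%. Symbols were joined by Ensembl identifier.

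The members and lists were chosen with earlier results of these data known. Named were the 10 genes, at most 6 called genes of each list by size, CCND2, CDK6, every CDK inhibitor, overlapping genes with at least 5% of a member's counts, and the 3 genes nearest each kinase. Other genes were named for their role with their values known. The alternatives tried were DESeq2 1.42.0, RLE factors, library totals, no filter, the replicate block, halved counts and each library left out. Unshared exon length was chosen after the data were seen. ChIP-seq and HiChIP data were not analysed here.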

Additional observations from a re-analysis of the deposited data

How the results depend on the processing

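The 10 genes kept their direction under DESeq2, RLE factors, library totals, no low-count filter, the replicate block, halved counts and with each library left out in turn, and the 5 called genes remained called in all of these. Of 100 values under alternatives, 95 stayed on the same side of the threshold and 5 passed it where the reported value had not. CCND1 passed with library totals (log2 fold change 0.2224), no filter (0.1672) and the replicate block (0.1738, adjusted p = 0.0499), and ranged from 0.0842 to 0.2528 with each library left out, so that 2 of the 10 genes were then higher by the adjusted p in place of 1 (range 1 to 2 with libraries left out). CCNE2 ranged from −0.7063 to −0.4615 and passed without control replicate 1 (−0.6961). The cause was not tested. Library totals moved the median of all tested genes to 0.0471, which is part of the rise of CCND1 under that scaling. The replicate block changed no other call among the 10 genes; deviations of same-numbered libraries had a correlation of 0.0203 across genes, and the labels name no pairing. Leaving out a library left 1 in its group, assumed to vary like the other group. The other lists held 9 to 10 genes called lower and 2 to 4 called higher. Low counts limit the precision of genes such as CCNE2, CDK7 and CDK18.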
